A study of Rattus norvegicus with 5 samples.

Results

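The genes described here are 10 transcriptional regulators of the Schwann cell lineage, the glia that ensheathe and myelinate axons outside the brain and spinal cord. They were chosen by symbol (Sox10, Egr2, Pou3f1, Pou3f2, Nab1, Nab2, Sox2, Id2, Foxd3 and Tfap2a), and all 10 were found among the 33014 genes of the authors' combined table. The data are 5 RNA-seq libraries of dissociated wild-type Sprague Dawley rat dorsal root ganglia, taken at postnatal day 10 from a litter of 10 pups and kept in culture for 8 days. Cells were plated at 5000 per well, PBS was added after 1 day as the sole treatment, and 3 wells were pooled in TRIzol for each poly-A library. The series concerns a drug screen for chronic pain that reads neuronal activity by light, and its 5 libraries form 1 group with no contrast between conditions. Because the cultures mix neurons, glia, fibroblasts and macrophages, fewer cells of a type and less RNA per cell cannot be told apart.

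Schwann cells arise from the neural crest through precursor and immature stages before some of them myelinate. Sox10, an HMG-box factor, is needed at every one of these stages and switches on many glial genes. Foxd3, a forkhead factor, and Tfap2a, the factor AP-2 alpha, belong to the crest and the precursors. The POU factors Pou3f1 (Oct6) and Pou3f2 (Brn2) act at the promyelinating step, and Egr2 (Krox20), a zinc-finger factor, then drives myelin and lipid genes together with Sox10. The proteins Nab1 and Nab2 do not bind DNA themselves but bind Egr factors and modulate what these do. Sox2 and Id2 are known for holding Schwann cells in the immature state, and Id2 acts by binding helix-loop-helix proteins. None of these genes is restricted to Schwann cells: Sox2 and Sox10 are also known in satellite glia, POU factors in neurons, Egr2 in macrophages and fibroblasts, and Id2 and the Nab genes in many cells.

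All markers listed for neurons (8), satellite glia (7), macrophages (10) and fibroblasts (8) reached 1 TPM (transcripts per 1000000, a level that is scaled by transcript length) in every library. Of 6 endothelial markers 3 did. Markers of other lineages that use these regulators, given next, had means of 11.4 TPM or less. Tfap2a, the lowest regulator, was itself at 10.8 TPM. Of 7 melanocyte markers 3 were detected (Kit at 11.4 ± 0.864, Pmel at 10.2 ± 2.04 and Mitf at 3.50 ± 0.423 TPM), while Tyr and Dct, which define pigment cells, were at 0.0363 and 0.0467 TPM. For oligodendrocytes 1 of 6 was detected, Olig2 at 3.44 ± 0.718 TPM. Of 5 epidermal markers that the files list, 3 were detected (Krt14 at 4.47 ± 0.730, Krt10 at 2.45 ± 0.291 and Grhl3 at 2.14 ± 0.258 TPM). Krt5 and Krt1 were at 0.0821 and 0.0184 TPM. Summed levels over the libraries ranged from 24.1 to 28.3 TPM for the melanocyte list, 4.38 to 6.51 TPM for the oligodendrocyte list and 7.67 to 10.7 TPM for the epidermal list. Libraries held 21596608 to 27913098 estimated reads, and values below are means ± SD over n = 5.

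Every regulator was expressed in every library. All 10 were detected (at least 1 TPM in all 5 libraries), against 41.3% of the genes in the table. The median of their mean levels was 44.9 TPM, against 20.5 TPM over all 13635 detected genes. In order of level they were Sox10, Foxd3, Sox2, Id2, Egr2, Nab2, Pou3f1, Nab1, Pou3f2 and Tfap2a. Sox10 lay above 96.7% of detected genes and Tfap2a above 32.5%. Reads behind them, summed over the libraries, ran from 1808 for Id2, whose transcript is short, to 66501 for Sox10.

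**Figure D1:**
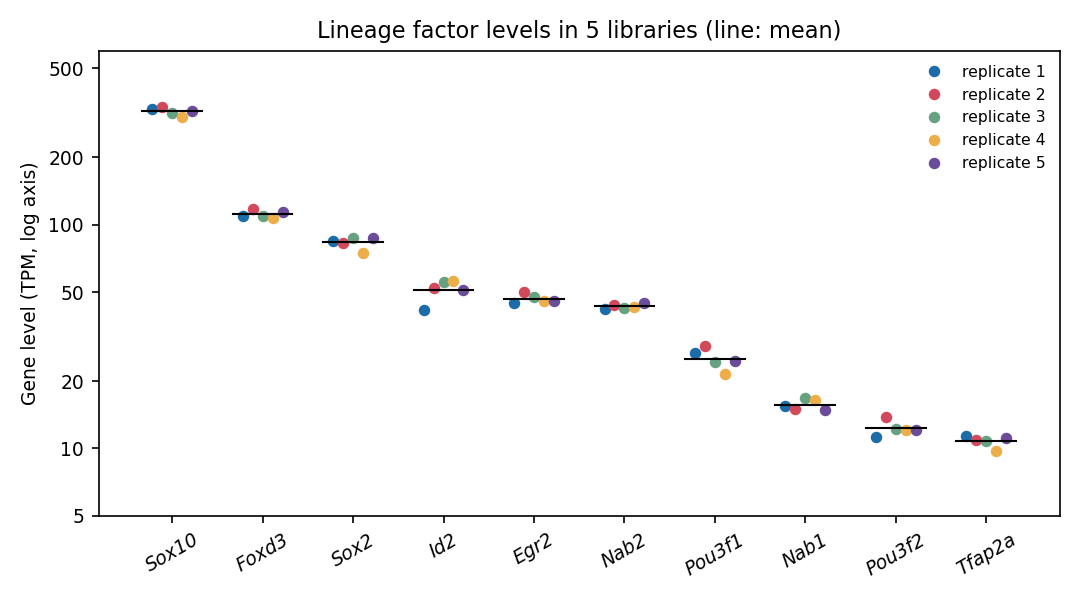
Level of each regulator (vertical axis, TPM, log scale) in replicates 1 to 5 (coloured points), with the mean as a line. Sox10 lies highest, at 302 to 338 TPM, and Id2, Egr2 and Nab2 lie side by side near 50 TPM.

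Pairs of regulators were compared within libraries as log2 ratios of TPM + 0.1, a scale that understates ratios of low genes. Each was tested with limma, adjusted over the ratios of all fitted genes to the 10 regulators. Of 45 pairs 44 differed at an adjusted p under 0.05, and of all ratios fitted 96.8% did, so a call here says little more than that 2 genes had unequal levels. For 42 pairs the ranges over the libraries did not overlap, against 95.2% of all ratios. The pair that missed the threshold was Id2 and Egr2. Nothing in the labels assigns the libraries to different litters or dissociations, so p-values describe library-to-library spread alone, part of which may be technical.

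Among the precursor and pan-lineage factors, Sox10 stood at 330.0, 338, 315, 302 and 323 TPM in replicates 1 to 5. Its lowest library was replicate 4 and its highest replicate 2. Foxd3 stood at 110.0, 117, 110.0, 107 and 115 TPM, with the same libraries lowest and highest. Sox10 exceeded Foxd3 by 2.87-fold (log2 1.52 ± 0.04, 5 of 5 libraries, limma adjusted p = 1.02e-07). Tfap2a, at 11.3, 10.95, 10.8, 9.76 and 11.1 TPM, was the lowest regulator on average and likewise lowest in replicate 4. Foxd3 exceeded it by 10.3-fold (log2 3.36 ± 0.07, 5 of 5 libraries, limma adjusted p = 1.17e-08). So the 2 factors best known from crest and precursor stages lay at very different levels.

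Each of these genes carried most of the TPM of its paralog family. Sox10 held 97.2% ± 0.186 of the summed TPM of the SoxE genes. Sox9, a SoxE gene of crest and cartilage, was at 2.30 ± 0.337 TPM, 135-fold below Sox10 (log2 7.07 ± 0.14, limma adjusted p = 7.05e-09), and Sox8 was at 6.86 ± 0.629 TPM. Foxd3 held 94.6% ± 0.923 of the Foxd genes, with Foxd2 at 4.41 ± 0.582 TPM and Foxd1 at 1.96 ± 0.457 TPM. Foxd4 had 0 reads, which allows up to 0.0280 TPM over the 5 libraries (3 reads, counting error alone). Tfap2a held 89.9% ± 0.688 of the AP-2 genes and was the one detected member. Tfap2b, its paralog in crest cells, was at 0.230 ± 0.114 TPM, 34.5-fold lower on the log2(TPM + 0.1) scale (log2 5.11 ± 0.44, limma adjusted p = 4.46e-07). Tfap2c was at 0.944 ± 0.130 TPM, and Tfap2d and Tfap2e were under 0.1 TPM.

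**Figure D2:**
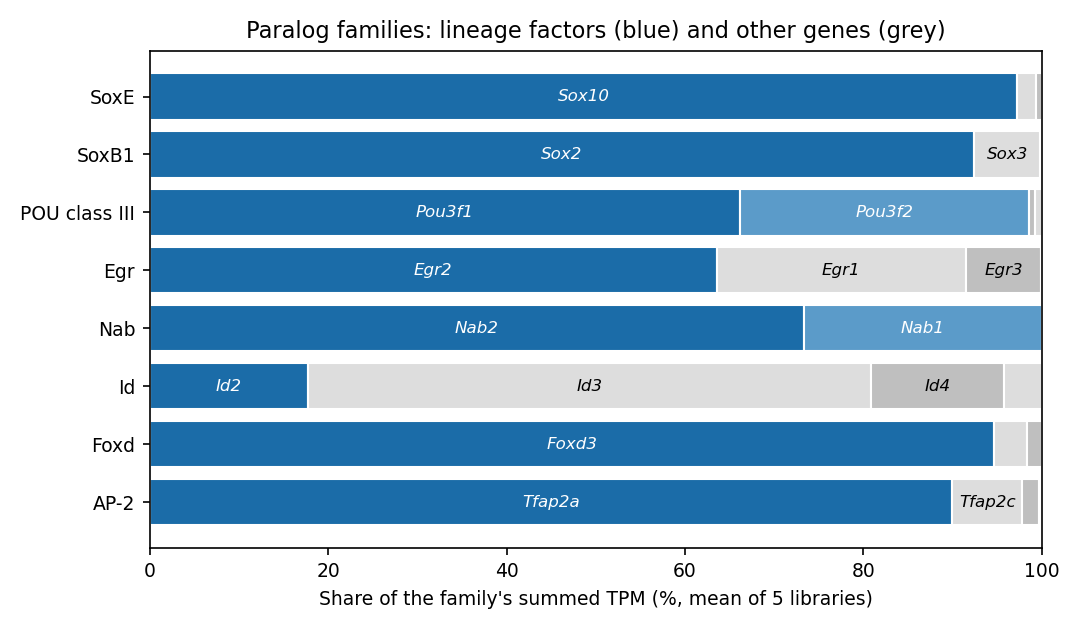
Share of the summed TPM of each paralog family (horizontal axis, %, mean of 5 libraries) held by the regulators (blue) and by their other members (grey). Sox10, Sox2, Foxd3 and Tfap2a each hold between 89.9% and 97.2%, while Id2 holds 17.8%.

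The promyelinating factor Pou3f1 stood at 26.8, 28.6, 24.4, 21.5 and 24.6 TPM in replicates 1 to 5, highest in replicate 2 and lowest in replicate 4. Pou3f2 stood at 11.3, 13.8, 12.2, 12.1 and 12.1 TPM, highest in replicate 2 and lowest in replicate 1, and its range did not overlap that of Pou3f1. Pou3f1 exceeded Pou3f2 by 2.04-fold (log2 1.03 ± 0.15, 5 of 5 libraries, limma adjusted p = 1.04e-05). Their reads were nearly equal, 5106 for Pou3f1 and 5192 for Pou3f2 in total, and without length normalization the log2 ratio was -0.02 (limma adjusted p = 0.752). The difference per length rests on transcripts of 2981 and 5905 bases. The pair made up almost the whole of the POU class III family, with 66.2% ± 2.19 for Pou3f1 and 32.4% ± 2.27 for Pou3f2. Pou3f3 and Pou3f4, both brain POU factors, were at 0.279 ± 0.177 and 0.266 ± 0.196 TPM and were not detected.

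Egr2, the driver of the myelin program, stood at 44.9, 50.1, 47.3, 45.5 and 45.7 TPM. It was highest in replicate 2 and lowest in replicate 1, and its libraries lay within a factor of 1.12. The summed level of the 10 macrophage markers was 1612, 1211, 1820, 1786 and 1915 TPM in the same order, and the fibroblast list summed to between 1815 and 1857 TPM. The part of either cell type in the level of Egr2 was not tested. Egr2 exceeded Pou3f1 by 1.86-fold (log2 0.89 ± 0.13, 5 of 5 libraries, limma adjusted p = 1.37e-05) and lay 6.87-fold below Sox10 (Sox10 minus Egr2, log2 2.78 ± 0.06, limma adjusted p = 1.88e-08). Within the Egr family it held 63.6% ± 0.878. Egr1, a growth-factor and activity response gene at 20.5 ± 0.645 TPM, was 2.27-fold lower (log2 1.18 ± 0.06, limma adjusted p = 4.66e-07), Egr3 was at 6.22 ± 0.627 TPM and Egr4 at 0.0288 ± 0.0307 TPM.

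The Egr cofactor Nab2 stood at 42.0, 44.0, 42.4, 43.0 and 44.6 TPM and had the smallest spread of the 10. Nab1 stood at 15.4, 14.99, 16.8, 16.5 and 14.8 TPM, below Nab2 in every library. Nab2 held 73.3% ± 1.49 of the pair's TPM and exceeded Nab1 by 2.74-fold (Nab1 minus Nab2, log2 -1.45 ± 0.11, limma adjusted p = 6.95e-07). Egr2 exceeded Nab1 by 2.96-fold (log2 1.57 ± 0.11, limma adjusted p = 5.34e-07). Egr2 and Nab2 lay within a factor of 1.08 (log2 0.11 ± 0.06, higher in 5 of 5 libraries, limma adjusted p = 0.0380). That call was lost without replicate 1, 2, 3 or 4 (limma adjusted p = 0.0678, 0.1003, 0.120 and 0.0626) and without length normalization (log2 0.04, limma adjusted p = 0.416).

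For 7 of the 10 regulators, all but Sox10, Pou3f1 and Tfap2a, the RefSeq promoter table of build GRCr8 gave the 250 bases before and 50 after the start of transcription. These windows were searched on both strands for an octamer (ATGCAAAT, bound by POU factors), an Egr motif (GCGNGGGCG), a Sox motif (AACAAAG), a Fox motif (GTAAACA) and an AP-2 motif (GCCNNNGGC). The windows below are examples that hold letters that 1 regulator described here is known to bind, in the promoter of another. Further matches of this kind are named after them and not printed. Each is 30 bases, 5′ to 3′ on the strand of the gene, with the motif in capitals and positions counted from the start, negative before it. The Egr2 window lies at chr20:21054562-21054591 (minus strand, GRCr8) and the Nab1 windows at chr9:56545430-56545459, chr9:56545462-56545491 and chr9:56545533-56545562 (plus strand, GRCr8).
Egr2, octamer at positions -139 to -132: gccaagcccgtATGCAAATtggccatgtga
Nab1, Egr motif on the other strand, positions -202 to -194: gccccgcggcCGCCCACGCtgggatctgcg
Nab1, Egr motif at positions -170 to -162: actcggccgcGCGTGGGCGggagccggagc
Nab1, Egr motif at positions -99 to -91: gcggggcgggGCGGGGGCGgcggaggtggc

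The Egr2 window was the only one of the 7 with the octamer, which 1.78% of all 33469 promoter windows held. Nab1 and Pou3f2 held the Egr motif, found in 4.98% of all windows, and Nab1 had a further match at positions 15 to 23. The Nab1 matches did not overlap each other. The AP-2 motif, in 15.1% of all windows, was also in those of Nab1 and Pou3f2. The Sox motif (5.98% of all windows) and the Fox motif (3.78%) were in none of the 7. These are matches of letters, and binding was not measured here.

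Sox2, a brake on myelination, stood at 84.4, 83.0, 87.6, 75.2 and 87.2 TPM, lowest in replicate 4. It exceeded Egr2 by 1.78-fold (Egr2 minus Sox2, log2 -0.84 ± 0.10, 5 of 5 libraries, limma adjusted p = 8.87e-06). Sox10 exceeded Sox2 by 3.85-fold (log2 1.95 ± 0.08, limma adjusted p = 8.58e-08). Sox2 held 92.4% ± 1.28 of the SoxB1 genes, with Sox3 at 6.65 ± 1.17 TPM and Sox1 at 0.174 ± 0.0649 TPM. In the GRCr8 table the span of Sox2 overlaps that of LOC103691527, a long noncoding RNA gene at 66.2 ± 4.99 TPM. The strand setting is unknown and exons were not compared. Whether reads of the 2 genes were mixed was not tested.

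Id2, the other brake, stood at 41.6, 52.2, 55.7, 56.1 and 51.0 TPM. Replicate 1 lay 22.6% below the mean of the other 4 libraries, and replicates 3 and 4 were highest. Id2 and Egr2 did not differ beyond their spread (Egr2 minus Id2, log2 -0.13 ± 0.16, Id2 higher in 4 of 5 libraries, limma adjusted p = 0.121). Without replicate 1 the difference was -0.19 (limma adjusted p = 0.0269), and without length normalization, where the short Id2 transcript of 733 bases has fewer reads, it turned to 2.42 (limma adjusted p = 2.33e-07). Sox2 exceeded Id2 by 1.63-fold (log2 0.71 ± 0.22, 5 of 5 libraries, limma adjusted p = 0.000338). Id2 held 17.8% ± 1.45 of the summed TPM of the Id genes. Id3 was at 181.7 ± 11.6 TPM, 3.55-fold above Id2 (Id2 minus Id3, log2 -1.83 ± 0.15, limma adjusted p = 6.32e-07), and Id1 at 12.3 ± 1.55 TPM, 4.16-fold below it (log2 2.06 ± 0.18, limma adjusted p = 7.02e-07). Id4 was at 42.8 ± 0.806 TPM (log2 0.25 ± 0.17, Id2 higher in 4 of 5 libraries, limma adjusted p = 0.0158). The Id4 call was lost without replicate 3 or 4 (limma adjusted p = 0.0529 and 0.0518), and without length normalization, where length also enters, the sign turned to -1.28.

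Of 9 neighbouring pairs in the order of level 8 passed the threshold, all but Id2 and Egr2, against 96.8% of all ratios fitted. The call for Egr2 and Nab2 was lost without some single replicates, as given above. Foxd3 exceeded Sox2 by 1.34-fold (log2 0.42 ± 0.08, limma adjusted p = 0.000149), Nab2 exceeded Pou3f1 by 1.72-fold and Pou3f1 exceeded Nab1 by 1.59-fold. Nab1 exceeded Pou3f2 by 1.28-fold (log2 0.35 ± 0.15, limma adjusted p = 0.00240), a sign that turned without length normalization (-0.34). Pou3f2 and Tfap2a overlapped in range (log2 0.19 ± 0.14, Pou3f2 higher in 4 of 5 libraries, limma adjusted p = 0.0271). Their call was lost without any one of replicates 2, 3, 4 and 5 (limma adjusted p = 0.0778, 0.0666, 0.0802 and 0.0511).

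For 6 regulators 1 transcript carried the gene (Sox10, Foxd3, Sox2, Id2, Pou3f1 and Pou3f2), and for 4 several RefSeq transcripts shared the reads. The Foxd3 transcript was identified by its TPM, which differed from that of the gene by less than 1e-05 in every library, since its RefSeq accession was not matched. For Egr2 the curated transcript NM_053633.2 (2963 bases) held 89.6% ± 1.29 of the TPM and the model XM_017601530.2 (3623 bases) the rest. Nab2 was divided in the same way, 79.0% ± 1.26 for the curated NM_001134874.1 (3366 bases) and 21.0% ± 1.26 for XM_006241459.4 (2430 bases). In Nab1 and Tfap2a a computed model led instead. XM_039084185.1 (3635 bases) held 83.4% ± 0.650 of Nab1, against 12.5% ± 1.41 for the curated NM_022856.5 (4525 bases). XM_039095687.1 (2314 bases) held 71.5% ± 3.98 of Tfap2a, against 28.5% ± 3.98 for the curated NM_001107345.2 (3288 bases).

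The Tfap2a transcripts did not move together. The model stood at 7.66, 7.52, 7.80, 7.59 and 7.89 TPM, while the curated transcript stood at 3.67, 3.43, 2.96, 2.17 and 3.20 TPM, lowest in replicate 4. The low Tfap2a value of replicate 4 therefore lay in the curated transcript, which rested on 693 reads in all. Shares between transcripts come from the quantification model, which divides the reads they have in common.

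**Figure D3:**
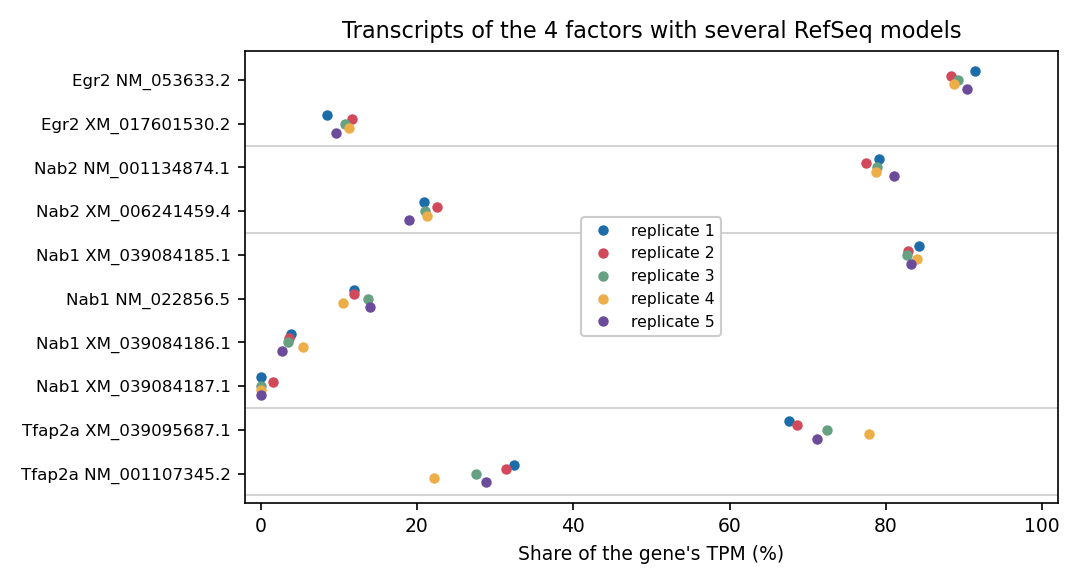
Share of each transcript in the TPM of Egr2, Nab2, Nab1 and Tfap2a (horizontal axis, %), 1 point per replicate. The curated (NM) transcript leads for Egr2 and Nab2, and a model (XM) leads for Nab1 at 83.4% and for Tfap2a at 71.5%.

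Regulators differed in their spread between libraries. The SD of log2(TPM + 0.1) was lowest for Nab2 at 0.04 and highest for Id2 at 0.17 and Pou3f1 at 0.16. Its median over the 10 was 0.08, as it was over all detected genes. No test of these spreads was run.

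Regulators were not all lowest in the same library, and the counts here were not tested. Sox10, Foxd3, Sox2, Pou3f1 and Tfap2a (5 of 10) were lowest in replicate 4, where 24.3% of detected genes were lowest. Id2, Egr2, Nab2 and Pou3f2 (4 of 10) were lowest in replicate 1, where 24.4% of detected genes were, and Nab1 was lowest in replicate 5. For Egr2 and Nab2 the lowest library lay close to the next, at 44.9 against 45.5 TPM and 42.0 against 42.4 TPM. Replicate 4 was the library with the most reads. Of the 11 myelin genes listed as targets of Sox10 and Egr2, 9 were lowest in replicate 1. There Mag, an adhesion protein of myelin, lay 40.8% below the mean of the other libraries, Mbp 33.5% and Prx, a scaffold of the outer myelin membrane, 32.9% below it. Egr2 lay 4.84% below that mean, and Sox10 was at 330.0 TPM, its second highest level. The summed satellite glia list, whose cells share Sox10 and Sox2, was at 8777, 8754, 10590.0, 10775 and 11341 TPM, low in replicates 1 and 2. Most of this sum, and so its pattern, came from Apoe, at 7927, 7852, 9628, 9828 and 10409 TPM in the same order. The part of other cell types in these deviations was not tested. Some other lists were also low in replicate 1. There 7 of 10 immature Schwann cell genes, 5 of 8 neuron markers and 4 of 7 satellite glia markers were lowest. Of the fibroblast markers 2 of 8, and of the macrophage markers 0 of 10, were lowest there. Other lists went the other way, with 5 of 9 repair Schwann cell genes and 5 of 12 other crest and precursor factors highest in replicate 1. Of these 2 lists 1 and 2 genes were lowest there. Ngfr, of the immature list, was highest there, at 335 TPM. Among the neuron markers Rbfox3 lay 14.7%, Isl1 12.2% and Snap25 12.1% below the mean of the other libraries. The summed neuronal list, most of it from Prph, Tubb3, Uchl1 and Stmn2, was at 6627 TPM in replicate 1 and 6593 to 6995 TPM elsewhere.

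**Figure D4:**
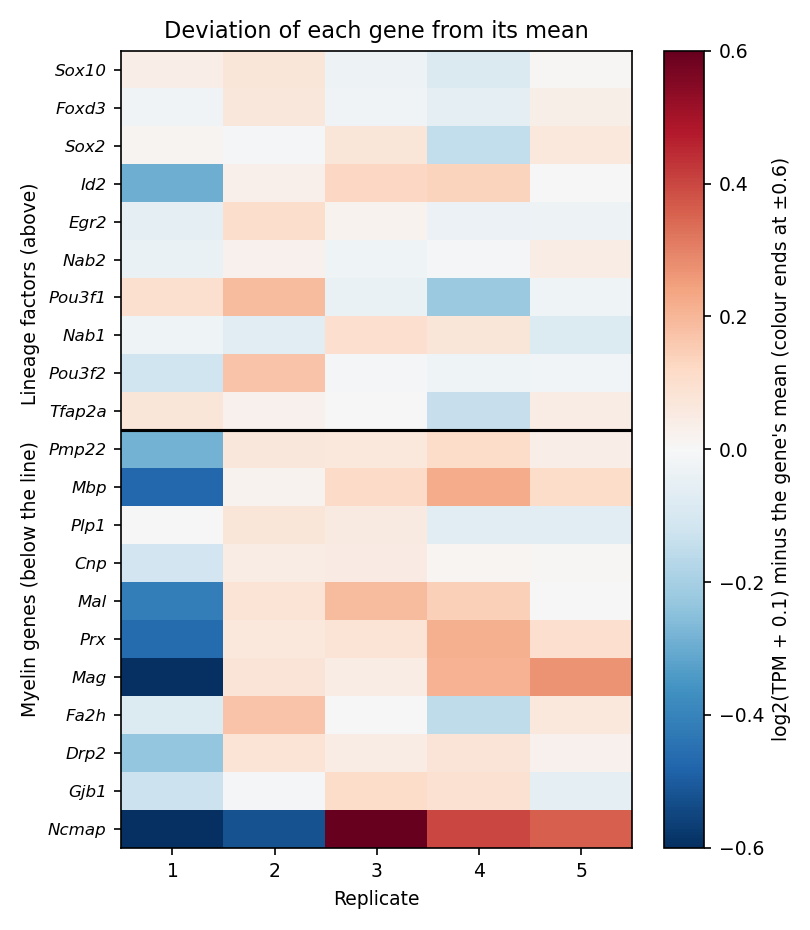
Deviation of each gene from its mean over 5 libraries (colour, log2(TPM + 0.1)) for the regulators (above the line) and 11 myelin genes (below), by replicate. In replicate 1 most myelin genes and Id2 are low while Sox10 and Egr2 are near 0. In replicate 4 Sox10, Foxd3, Sox2, Pou3f1 and Tfap2a are low.

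Other genes of this regulatory network were read against Egr2 and Sox10. Over all genes fitted, 17.7% were higher and 79.3% lower than Egr2, and 2.22% were higher and 97.4% lower than Sox10 (limma adjusted p under 0.05). Of 15 other nuclear factors that act towards myelination all were detected, 11 were higher than Egr2 and 4 lower, and all 15 were lower than Sox10. The count higher than Egr2 was 8 with sums of named transcripts. It was 6 with reads of the same named transcripts and no length normalization. The highest were the histone deacetylase Hdac2 at 145 ± 4.28 TPM, the remodeller Chd4 at 137 ± 4.47 TPM and Zeb2, a repressor of inhibitors of Schwann cell differentiation, at 101 ± 6.22 TPM. Of 12 other factors known to hold back myelination all were detected, 3 were higher and 9 lower than Egr2. They were led by Jun at 377 ± 19.7, Id3 at 181.7 ± 11.6 and the Notch effector Hey1 at 65.5 ± 7.53 TPM. Jun, the regulator of the repair state that Egr2 is known to antagonise, lay 8.05-fold above Egr2 (Egr2 minus Jun, log2 -3.01 ± 0.09, 5 of 5 libraries, limma adjusted p = 2.36e-08). Jun was the 1 gene of this list above Sox10. Which cell types of these mixed cultures carried Jun or the other factors of these lists was not tested.

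Of 9 repair Schwann cell genes, which again include Jun, all were detected and 2 were higher than Egr2. The other was Btc, a ligand of the EGF family, at 94.2 ± 11.3 TPM, and Lif followed at 15.1 ± 2.29 TPM. Of 12 other crest and precursor factors 10 were detected and all 12 were lower than Egr2. Ets1 led them at 37.7 ± 1.82 TPM, with Twist1 at 13.3 ± 0.878 and Zic1 at 6.08 ± 0.611 TPM, and Msx2 (0.383 ± 0.101 TPM) and Tfap2b were not detected. Their median was 2.96 TPM, against 112 ± 4.05 TPM for Foxd3.

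Target genes ranged far above and below their regulators. All 11 myelin targets listed were detected, 6 higher and 5 lower than Egr2, and 4 higher than Sox10. Among them Pmp22, a membrane protein of compact myelin, was at 1185 ± 122 TPM and Mbp, myelin basic protein, at 872 ± 147 TPM, and Ncmap was lowest at 3.30 ± 1.36 TPM. Of 8 other Sox10 targets all were detected and 6 were higher than Egr2, led by S100b, a calcium-binding glial protein, at 499 ± 16.0, Gas7 at 463 ± 20.3 and the neuregulin receptor Erbb3 at 220 ± 8.18 TPM. All 10 genes of immature Schwann cells were higher than Egr2 and 2 were higher than Sox10, Gap43, which neurons share, at 1635 ± 7.78 TPM and S100b. Scn7a followed at 310 ± 24.0 TPM. The count of immature genes higher than Egr2 was 9 with sums of named transcripts. It was 8 with reads of the same named transcripts and no length normalization. Fabp7, in this list, is also among the satellite glia markers. The cell types that carried the immature list in these mixed cultures were not tested. 

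**Figure D5:**
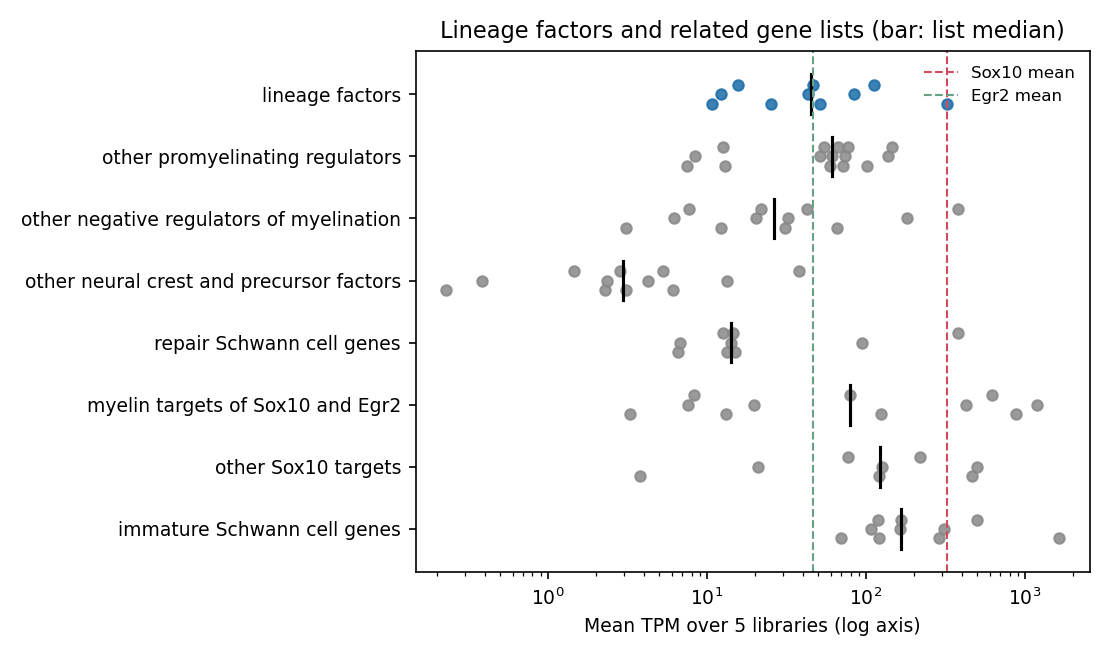
Mean TPM over 5 libraries (horizontal axis, log scale) of the 10 regulators and of 7 related gene lists, 1 point per gene, with list medians as bars and the means of Sox10 and Egr2 as dashed lines. All 12 other crest and precursor factors lie left of Egr2 and all 10 immature Schwann cell genes right of it.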

How the data were processed

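Poly-A RNA of 5 cultures of 1 group was sequenced. Per the submitters' processing notes, Trim Galore 0.6.6, cutadapt 2.8 and Salmon 1.5.1 were used with the rat build mRatBN7.2. For the strand setting, nothing is given in the sources used here. Gene-level TPM was deposited by the authors in a combined table, the main source here. Each deposited quantification file lists TPM and, as Salmon output, the estimated count for every transcript, per the file headers. Estimated counts gave the depth and were rounded to whole reads for the comparison of libraries. Summed over the named transcripts of each gene and scaled to CPM without rounding, they gave the alternative without length normalization. That alternative therefore also leaves out transcripts that were not named. A transcript of 1 kb at 1 TPM was backed by 13.3 to 17.4 reads, and a floor is 3 reads over the 5 libraries.

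Transcripts were named by RefSeq accession without version from a GRCr8 table (67330 of 98811). For 9 of the 10 regulators their sum matched the gene's TPM within 1%. Reads differed between all pairs of libraries by more than counting noise (chi-square per degree of freedom 16.8 to 19.4), so none was merged.

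Log2 ratios of TPM + 0.1 of every gene with a mean of at least 0.1 TPM to each regulator (189825 ratios) were tested in 1 intercept-only fit with limma 3.58.1 in R 4.3.3, two-sided, with Benjamini-Hochberg adjustment and a threshold of 0.05. The fit was tested on simulated data. The text names the 10 regulators, their paralogs and the 19 listed pairs. Of the other lists it names up to 3 of the highest and up to 3 of the lowest undetected genes. No macrophage, fibroblast or endothelial marker is named. Further names were chosen after their values were seen. The regulators and lists were chosen with earlier results of these data known, and the promoter motifs after the files were seen. 1 gene of the myelin list is not reported here and was left out of that list. With 5 libraries of 1 group, no gene of like pattern is named.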

Additional observations from a re-analysis of the deposited data

Results flagged for a closer look

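Of 64 values or ratios checked, 5 had a library far from the other 4 (gap to the nearest library over the whole range above the 95% critical value for 5 samples). Chance flags about 1 in 20 values. For the regulators themselves this was 1 minor transcript: XM_039084187.1 of Nab1 was at 0.237 TPM in replicate 2, resting on 3 reads, and at 0 in the others. The other 4 were myelin genes in replicate 1. Pmp22 was at 970.3 TPM there and at 1214 to 1272 TPM elsewhere. Prx was at 56.95 TPM against 81.9 to 90.8 TPM. Cnp was at 389.7 TPM against 424 to 437 TPM, and Drp2 was at 6.997 TPM against 8.40 to 8.75 TPM.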

How the results depend on the processing

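No paired analysis was possible because the libraries form 1 group. All 10 regulators stayed detected at 0.5 or 5 TPM and without each replicate, and 9 did with transcript sums, where Foxd3 had no matched transcript. Without each replicate, 41 to 44 of the 45 regulator pairs and 16 to 18 of the 19 listed pairs passed. The exact sign-flip test over 5 libraries cannot go below p = 0.0625, so with it 0 pairs of either kind passed, at adjusted or unadjusted p. Pseudocounts of 0.01 or 1 and other filters changed none of the pair calls that could be fitted. Without length normalization (CPM), where length also enters, 4 signs turned: Egr2 over Id2 to 2.42, Pou3f1 over Pou3f2 to -0.0229, Id2 over Id4 to -1.28 and Nab1 over Pou3f2 to -0.34. That setting also leaves out transcripts that were not named. In it 6 of the other promyelinating factors, 1 crest factor and 1 repair gene were higher than Egr2. Of the other Sox10 targets 1 was higher than Sox10 with CPM and 1 with transcript sums, which also put Tfap2a at 91.3% of its family. By reads in place of TPM, the leading transcripts held 87.4% of Egr2, 80.8% of Nab1, 84.4% of Nab2 and 63.1% of Tfap2a. Depth limits Id2 and Tfap2a most, with counting errors of 5.30% and 5.17% per library.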

Other observations

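In the GRCr8 gene table several of the regulators lie next to a gene of a long noncoding RNA, and some of these neighbours were well expressed. They were chosen after their values were seen, and no test was run. LOC120093688, beside Sox10, stood at 120, 142, 128, 120 and 129 TPM in replicates 1 to 5, which is 39.7% of the mean level of Sox10. LOC102556374, beside Foxd3, was at 47.7 ± 2.40 TPM (SD, n = 5), and LOC102553820, beside Pou3f2, was at 18.5 ± 0.983 TPM, above Pou3f2 itself. The noncoding neighbours of Egr2 and Pou3f1, LOC108349024 and LOC102548116, were not detected, at 0.184 and 0.309 TPM. Whether reads of a regulator reached its neighbour was not tested.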
